A study of Homo sapiens with 4 samples.

Results

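The genes described here load amino acids onto tRNAs or answer a shortage of amino acids. They are 41 of the 63677 genes counted in IMR90 and were taken by symbol from a fixed list of roles, a list drawn up with earlier results of these data known. They comprise 20 genes for cytosolic aminoacyl-tRNA synthetases (AARS, CARS, DARS, EPRS, FARSA, FARSB, GARS, HARS, IARS, KARS, LARS, MARS, NARS, QARS, RARS, SARS, TARS, VARS, WARS and YARS, which newer annotations write with a final 1 except for the FARS pair), 2 for the scaffold of the multisynthetase complex (AIMP1, AIMP2), ATF4 itself and 18 genes known as targets of ATF4. The targets fall into 6 stress regulators and effectors (ATF5, DDIT3, DDIT4, TRIB3, CHAC1, SESN2), 7 enzymes of amino acid and one-carbon metabolism (ASNS, PSAT1, PHGDH, PSPH, SHMT2, MTHFD2, ALDH1L2), 4 genes for amino acid transport (SLC7A11, SLC7A5, SLC3A2, SLC7A1) and the lipoprotein receptor gene VLDLR. All 41 were found in the files and all 41 passed the filter on low counts, the lowest value being 436 counts for PSPH in a knockdown library.

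IMR90 are primary fibroblasts from human fetal lung. The isolates were I90-10 and I90-79, for which the labels name passage 5 and continued passaging. They were grown in medium with added non-essential amino acids and 10% FBS and received either a non-targeting control siRNA or siRNA against HMGB1, a chromatin protein that also binds RNA, with the lipid reagent RNAiMAX, and poly(A) RNA was taken after 72 h. Each group holds 2 libraries, replicate 1 from I90-10 and replicate 2 from I90-79, so the same isolates stand on both sides of the comparison. The study's methods name different siRNAs for IMR90 without saying which library received which, and the labels do not say whether the cells were proliferating or senescent.

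Aminoacyl-tRNA synthetases join each amino acid to its own tRNA, the step that fixes the reading of the genetic code. Several of them sit with AIMP1 and AIMP2 in 1 multisynthetase complex, whereas phenylalanyl-tRNA synthetase is a separate enzyme built from α subunits, encoded by FARSA, and β subunits, encoded by FARSB. When amino acids run short, uncharged tRNA activates the kinase GCN2, which phosphorylates eIF2α, slows translation in general and favours translation of ATF4 mRNA. The ATF4 protein then switches on genes for amino acid synthesis, uptake and tRNA charging, many of them through C/EBP-ATF response elements. ATF4 is controlled to a large part through its translation, which mRNA counts do not measure.

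Promoter sequences are shown first because 7 of the 16 synthetase genes with a promoter entry share a DNA word. The other 9, FARSA among them, do not hold it. The core TGATGNAA of the C/EBP-ATF response element was searched on both strands from 250 bases before to 50 bases after each RefSeq transcription start (GRCh38.p14). It occurred in 4.46% of the 27305 genes of the promoter table, in 11 of the 33 members with an entry (33.3%) and in 7 of 16 synthetases (43.8%). Only this core was searched, so no second motif could overlap it, and a match is a match of letters, not a measured binding site. The windows below run 5′ to 3′ on the strand that reads TGATG, with the core in capitals, for the synthetases with a match and for 3 members with a match whose values are given further on.
AARS, chr16:70289675-70289704: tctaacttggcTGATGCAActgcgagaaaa
CARS, chr11:3057407-3057436: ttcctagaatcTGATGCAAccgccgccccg
GARS, chr7:30594834-30594863: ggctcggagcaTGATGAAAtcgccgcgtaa
IARS, chr9:92293692-92293721: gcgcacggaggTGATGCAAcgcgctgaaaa
MARS, chr12:57488053-57488082: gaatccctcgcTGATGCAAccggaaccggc
NARS, chr18:57621804-57621833: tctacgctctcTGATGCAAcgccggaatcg
TARS, chr5:33440956-33440985: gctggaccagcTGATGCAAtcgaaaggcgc
ASNS, chr7:97872458-97872487: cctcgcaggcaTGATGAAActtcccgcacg
CHAC1, chr15:40953251-40953280: cctggcaggagTGATGCAAcggcaggggag
SLC7A1, chr13:29595663-29595692: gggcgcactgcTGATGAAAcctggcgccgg

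SLC3A2 also held the core, written TGATGTAA. Of the 7 synthetases, 6 carry the same 8 letters, TGATGCAA, and GARS, ASNS and SLC7A1 carry TGATGAAA. The windows of FARSB, KARS and EPRS hold 0 matches. The window of FARSA, the synthetase gene with the largest change, holds 0 matches as well and is printed whole, on the gene's strand.
FARSA, chr19:12933662-12933961, minus strand: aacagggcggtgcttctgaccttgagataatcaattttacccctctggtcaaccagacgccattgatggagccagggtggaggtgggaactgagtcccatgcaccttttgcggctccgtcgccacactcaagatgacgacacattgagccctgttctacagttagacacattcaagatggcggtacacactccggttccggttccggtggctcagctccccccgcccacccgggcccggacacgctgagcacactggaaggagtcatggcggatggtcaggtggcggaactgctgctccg

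The knockdown was present in each isolate. HMGB1 stood at 181 and 237 CPM (counts relative to library size, scaled between libraries by the TMM method) in control and at 15.96 and 18.86 CPM after knockdown (log2-fold change −3.59, standard error 0.19, adjusted p = 0.0075 in edgeR's quasi-likelihood test with Benjamini-Hochberg adjustment). The libraries held between 29861687 and 35317010 counted reads. All 10 fibroblast markers passed the filter, with summed levels of 18046 to 34228 CPM in control and 20590 to 32672 CPM in knockdown libraries. The 6 epithelial markers summed to 0.52 to 0.71 CPM in control and 0.62 to 0.67 CPM in knockdown libraries, with KRT5 and NKX2-1 at 0 counts, and the 4 leukocyte markers to at most 0.35 CPM, with CD3E at 0. The 3 endothelial markers matched summed to 1.493 to 1.498 CPM in control and 3.39 to 4.33 CPM in knockdown libraries, with CDH5 at 0, and their part in the results below was not tested. In RNA from bulk cultures, fewer cells that express a gene and less RNA per cell cannot be told apart.

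Calls required an adjusted p under 0.01 together with a log2-fold change beyond 0.6 in either direction. In the fit on group alone, edgeR called 31 of 15398 genes (0.201%, of which 0.0649% up and 0.136% down) and 0 of the 41 members. An unadjusted p below 0.05 was found for 19 members, 7 with higher and 12 with lower levels in knockdown, and for 28.3% of all genes, 13.6% higher and 14.7% lower. At an adjusted p below 0.05 the same fit called 8.07% of all genes, 3.73% up and 4.34% down, and 2 members up and 7 down. With the isolate as a replicate block, it called 2235 genes (14.5%; 6.68% up and 7.84% down) and 15 members (36.6%), 4 up and 11 down. RUVs followed by DESeq2, the kind of fit the study's methods describe, called 10.3% of all genes (4.96% up and 5.38% down), with 3 members up and 8 down. Because the isolate changes the calls, "rose" and "fell" below mean a call in the fit with the isolate as a block. Adjusted p values of that fit are given as "with the block". It was planned as an alternative to the fit on group alone, and with 2 libraries per group it leaves little from which to estimate variation. In the fit on group alone, no gene of the related lists described further on was called either. Log2-fold changes and standard errors (SE) are those of the fit on group alone unless stated otherwise. The quasi-likelihood test gives no SE, so each was derived as the absolute log2-fold change divided by the square root of that test's F statistic. The members divided evenly around no change, with 20 positive and 21 negative values and a median of −0.05, beside −0.01 over all genes tested.

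FARSA, the catalytic α subunit gene of phenylalanyl-tRNA synthetase, rose upon HMGB1 knockdown. Control libraries held 754 and 1208 FARSA counts and knockdown libraries 2384 and 2811, which is 25.7 and 32.8 CPM against 82.5 and 90.01 CPM. Both knockdown libraries were far above both control libraries. The log2-fold change was 1.56 (SE 0.16, 2.95-fold, adjusted p = 0.013, and 6.5e-05 with the block), at 1.68 in I90-10 and 1.45 in I90-79. By log2-fold change it ranked 300th from the top of the 15398 genes tested, close to SHMT2 at 315th.

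Its partner FARSB, the gene for the β subunit, was not called. It was at 49.7 and 58.5 CPM in control and at 64.9 and 70.8 CPM in knockdown libraries, a log2-fold change of 0.33 (SE 0.13, adjusted p = 0.19, and 0.036 with the block). The groups do not overlap, but the value did not pass the thresholds. The ratio of FARSA to FARSB reads was 0.516 and 0.560 in control and 1.27 in each knockdown library, so the subunit with fewer reads in control had more in knockdown. Per kilobase of exon, FARSA went from 10.5 and 13.5 to 33.9 and 36.97 CPM per kb and FARSB from 14.5 and 17.1 to 18.9 and 20.6 CPM per kb. The log2 difference between the subunits grew by 1.24 ± 0.08 (SD over isolates, n = 2). An exact two-sided permutation test over the 4 libraries gave p = 0.333, the smallest that 2 against 2 allows, so it cannot resolve this difference.

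FARSA was singled out with earlier results of these data known, so its place among the synthetases is a description and not a test. Among the 20 synthetases, it stood alone at the upper end. The next value was that of VARS at 0.46, leaving a gap of 1.10 on the log2 scale, and the lowest was that of KARS at −0.95. FARSA had the lowest level of the 20 in control, 12.002 CPM per kb, and the 9th highest in knockdown, 35.4 CPM per kb. Its log2-fold change exceeded the median of the other 19 synthetases, which was 0.06, by 1.502, at 1.69 in I90-10 and 1.34 in I90-79. The summed reads of those 19 genes came to 4248 and 3675 CPM in control and 3747 and 3686 CPM in knockdown libraries, so the family as a whole overlapped between the groups.

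**Figure D1:**
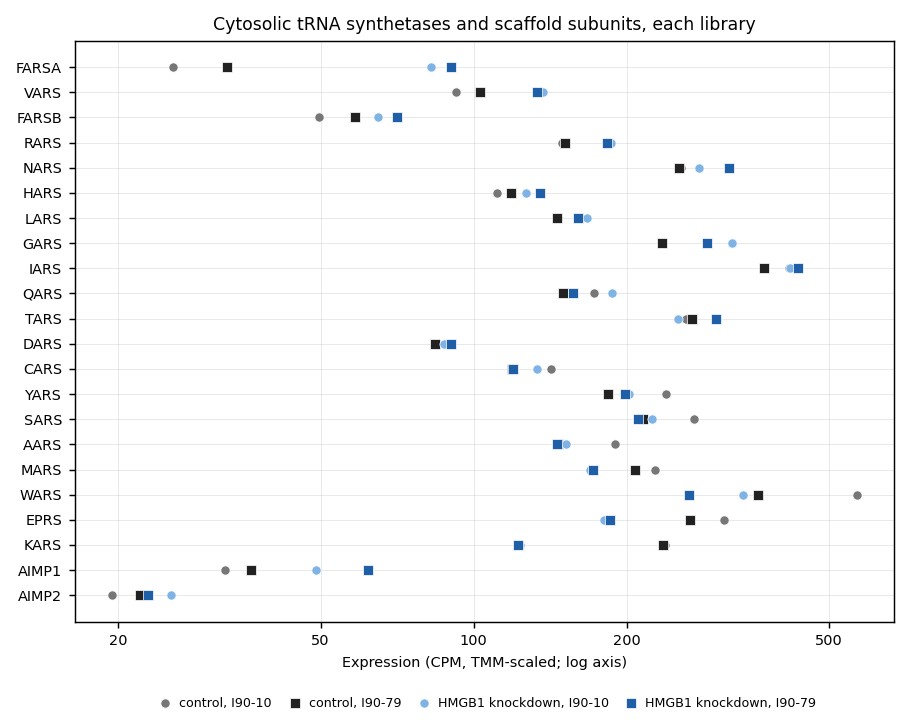
Expression of the 20 cytosolic synthetase genes and the 2 scaffold genes in each library, in CPM on a log axis, ordered by log2-fold change within each kind. Grey and black points are control, light and dark blue points HMGB1 knockdown, circles isolate I90-10 and squares I90-79. FARSA shows the widest gap between the groups, from at most 32.8 CPM in control to at least 82.5 CPM in knockdown, KARS and EPRS the clearest shift to the left.

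Of the synthetases, KARS and EPRS fell. KARS, the lysyl-tRNA synthetase gene, was at 238 and 235 CPM in control and at 123 and 122 CPM in knockdown libraries, so the isolates gave nearly the same value on each side. Its level was 1.93-fold lower (log2-fold change −0.95, SE 0.11, adjusted p = 0.015, and 0.00025 with the block). EPRS, which encodes the glutamyl-prolyl-tRNA synthetase, was at 311 and 266 CPM in control and at 181 and 185 CPM in knockdown libraries (log2-fold change −0.66, SE 0.13, adjusted p = 0.045, and 0.0023 with the block). RUVs followed by DESeq2 called KARS but not EPRS.

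WARS, the tryptophanyl-tRNA synthetase gene, came close to a call. It had 567 and 362 CPM in control and 338 and 265 CPM in knockdown libraries, and the control library of I90-10 lay far above the other 3. The log2-fold change was −0.62 (SE 0.26, adjusted p = 0.19). Without control replicate 1 it was −0.26. With the block it was −0.60 (adjusted p = 0.0043), just short of the fold threshold and so not called.

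VARS, the valyl-tRNA synthetase gene, had the second highest log2-fold change of the family. It was at 92.3 and 103 CPM in control and at 137 and 133 CPM in knockdown libraries (log2-fold change 0.46, SE 0.11, adjusted p = 0.071, and 0.0089 with the block), a shift below the fold threshold. RARS, for arginine, went from 149 and 151 to 186 and 182 CPM (log2-fold change 0.30), and MARS, for methionine, from 227 and 208 to 169 and 172 CPM (log2-fold change −0.35). Neither passed the thresholds in either fit. MARS shares 12.4% of its exon bases with the neighbouring genes ARHGAP9 and DDIT3.

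The other 12 synthetases lay between −0.17 (AARS) and 0.22 (NARS), and none of them was called in either fit. AARS, CARS, DARS, GARS, QARS, SARS, TARS and YARS had overlapping groups. HARS, IARS, LARS and NARS were higher in both knockdown libraries than in both control libraries, by log2-fold changes of 0.11 to 0.22. Counting all 20, 8 synthetases lay higher and 4 lower without overlap, beside 29.8% and 30.2% of all genes. With the block 1 of the 20 rose and 2 fell, 15.0% together, a share close to that over all genes.

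No synthetase with the core TGATGNAA was called. The 7 with a match, whose windows stand above, had a median log2-fold change of 0.06 and a range of −0.35 to 0.22. They had 0 calls in either fit, where 14.5% of all genes were called with the block. The 9 with a promoter entry and no match had a median of 0.09 and included all 3 synthetases called, FARSA, KARS and EPRS. The medians were close, and whether the core goes with the calls was not tested. No entry was found for DARS, LARS, VARS and YARS. Among the ATF4 targets, PSPH, SHMT2, ALDH1L2 and SLC7A11 had no entry either, so their promoters were not searched.

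The scaffold genes lay on the side of FARSA. AIMP1, which holds parts of the multisynthetase complex together and is also the precursor of a cytokine, rose from 32.4 and 36.4 CPM to 49.0 and 62.0 CPM (log2-fold change 0.69, SE 0.16, adjusted p = 0.061, and 0.0019 with the block). AIMP2 was at 19.4 and 22.04 CPM in control and at 25.5 and 22.9 CPM in knockdown libraries, with no overlap but a log2-fold change of only 0.22 (SE 0.14, adjusted p = 0.37). EIF2AK1 overlaps 28.9% of the exon bases of AIMP2, and TBCK 11.6% of those of AIMP1. RUVs followed by DESeq2 did not call AIMP1.

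ATF4 mRNA was slightly lower and was not called. It stood at 419 and 416 CPM in control and at 341 and 368 CPM in knockdown libraries, without overlap (log2-fold change −0.24, SE 0.12, adjusted p = 0.27, and 0.094 with the block). Of the 50-base words of its exons, 15.1% also occur in another gene of the files, the pseudogene ATF4P4. Per kilobase it had the highest level of all 41 genes in each group, with 166 CPM per kb in control and 141 CPM per kb in knockdown.

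Among ATF4 and the 6 stress regulators and effectors, 2 fell and 0 rose with the block, beside 7.84% and 6.68% of all genes. TRIB3, a pseudokinase that binds ATF4 and dampens it, went from 45.4 and 45.6 CPM to 24.6 and 30.7 CPM (log2-fold change −0.72, SE 0.15, adjusted p = 0.049, and 0.0025 with the block). SESN2, a leucine sensor that restrains mTORC1, went from 93.5 and 73.5 CPM to 43.4 and 53.9 CPM (log2-fold change −0.78, SE 0.18, adjusted p = 0.060, and 0.0065 with the block). In both genes the difference was larger in I90-10 (−0.88 and −1.11) than in I90-79 (−0.57 and −0.45).

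CHAC1, a glutathione-degrading enzyme gene and a sensitive ATF4 target, pointed the other way without a call. It had 49.6 and 46.1 CPM in control and 76.5 and 56.1 CPM in knockdown libraries (log2-fold change 0.47, SE 0.18, adjusted p = 0.16, and 0.018 with the block). DDIT3, the gene for the stress factor CHOP, was at 27.1 and 35.5 CPM in control and 22.4 and 36.4 CPM in knockdown libraries, so the groups overlap and the isolates differ more than the groups do. Its exons share 30.1% of their bases with MARS. ATF5 (0.13) and DDIT4 (−0.08) also stayed under the thresholds, and 23.7% and 41.2% of their exon bases overlap other genes.

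The enzymes of amino acid and one-carbon metabolism moved in opposite directions within short pathways. All 7 were called with the block, 2 up and 5 down, where 6.68% and 7.84% of all genes were. In all 7 the groups did not overlap, which held for 29.8% (higher) and 30.2% (lower) of all genes. SHMT2, the mitochondrial serine hydroxymethyltransferase that passes a carbon of serine to folate, rose from 65.4 and 55.7 CPM to 181 and 166 CPM (log2-fold change 1.52, SE 0.13, adjusted p = 0.010, and 5.2e-05 with the block). This is close to the value of FARSA, at 1.47 in I90-10 and 1.58 in I90-79.

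MTHFD2 and ALDH1L2, a pair of enzymes that follow SHMT2 in mitochondrial folate metabolism, fell. MTHFD2 went from 158 and 118 CPM to 68.3 and 79.6 CPM (log2-fold change −0.90, SE 0.18, adjusted p = 0.045, and 0.0029 with the block), with 33.2% of its exon bases overlapping other genes, SLC4A5 among them. ALDH1L2, which oxidises formyl-tetrahydrofolate, had the lowest log2-fold change of the 41 genes. It was at 124 and 68.3 CPM in control and at 30.9 and 23.5 CPM in knockdown libraries, 3.54-fold lower (log2-fold change −1.82, SE 0.32, adjusted p = 0.035, and 9.0e-05 with the block). Its control library of I90-10 stood well above that of I90-79, and both were above the knockdown libraries.

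Serine synthesis, which PHGDH, PSAT1 and PSPH carry out in that order, split in the same way. PHGDH, the entry step, rose from 87.6 and 60.3 CPM to 119 and 113 CPM (log2-fold change 0.66, SE 0.20, adjusted p = 0.10, and 0.0047 with the block). PSAT1 fell from 194 and 128 CPM to 85.8 and 73.8 CPM (log2-fold change −1.01, SE 0.22, adjusted p = 0.055, and 0.00059 with the block). PSPH fell from 35.4 and 22.8 CPM to 15.997 and 13.96 CPM (log2-fold change −0.96, SE 0.24, adjusted p = 0.074, and 0.0018 with the block). PSPH shares 6.1% of its 50-base words with PSPHP1 and PSAT1 4.6% with PSAT1P3, both pseudogenes. RUVs followed by DESeq2 called PHGDH and PSAT1 but not PSPH. The sizes rest on the control libraries, since without control replicate 1 the log2-fold change of PHGDH was 0.95 and that of PSPH −0.61, and without control replicate 2 they were 0.41 and −1.24.

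ASNS, asparagine synthetase, fell with PSAT1. It was at 173 and 130.5 CPM in control and at 82.2 and 90.1 CPM in knockdown libraries (log2-fold change −0.81, SE 0.17, adjusted p = 0.049, and 0.0030 with the block). Its promoter window holds TGATGAAA, as do those of SLC7A1, which fell, and GARS, which was not called (log2-fold change 0.13). Of the 11 members with a match to the core, 0 rose and 2 fell with the block. Of the 22 members with a promoter entry and no match, 3 rose and 7 fell, beside 6.68% and 7.84% of all genes. For all 7 enzymes the control library of I90-10 was above that of I90-79, by more for ALDH1L2 than for SHMT2. The 5 enzymes that fell had a larger difference in I90-10 than in I90-79, and the median over the 7 was −1.14 and −0.57 in these isolates.

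**Figure D2:**
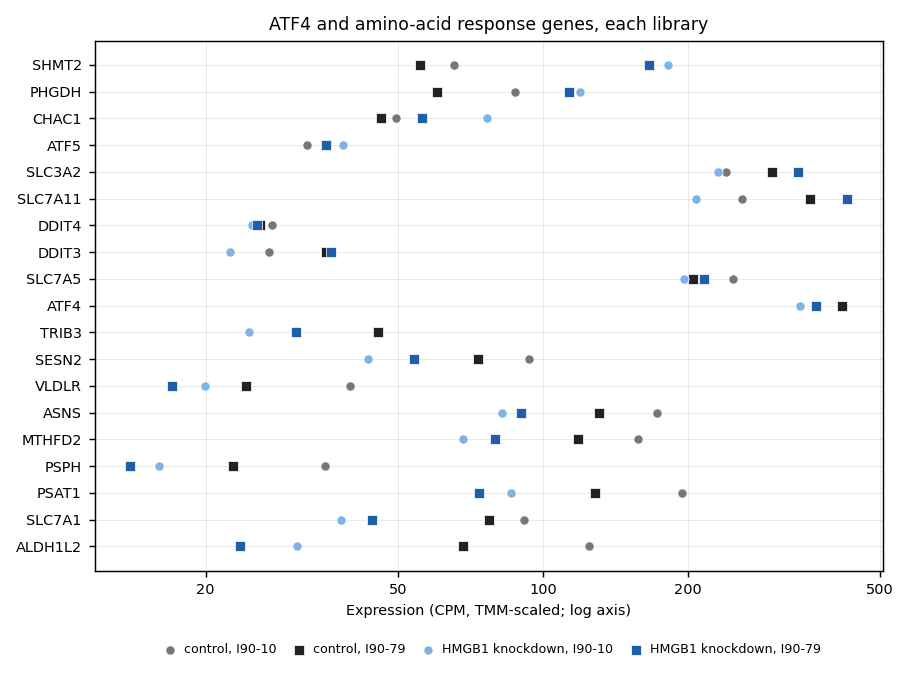
Expression of ATF4 and its 18 listed targets in each library, in CPM on a log axis, ordered by log2-fold change. Colours and shapes are as for the synthetases. SHMT2 and PHGDH lie to the right in knockdown, the genes from TRIB3 to ALDH1L2 to the left, and for DDIT3, SLC7A11 and SLC3A2 the isolates are further apart than the groups.

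Of the transporters, only SLC7A1 was called. SLC7A1, the carrier of cationic amino acids such as arginine and lysine, fell from 91.2 and 77.4 CPM to 38.2 and 44.2 CPM (log2-fold change −1.03, SE 0.14, adjusted p = 0.022, and 0.00072 with the block). SLC7A11, the cystine carrier, was at 258 and 357 CPM in control and at 207 and 427.5 CPM in knockdown libraries (log2-fold change 0.04, SE 0.37, adjusted p = 0.95). Its difference was −0.32 in I90-10 and 0.26 in I90-79. SLC3A2, the heavy chain that pairs with SLC7A11 or with the leucine carrier SLC7A5, behaved alike in sign, with −0.05 and 0.17. SLC7A5 went from 248 and 204 CPM to 196 and 216 CPM (log2-fold change −0.14, SE 0.15, adjusted p = 0.58).

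VLDLR, a lipoprotein receptor gene that ATF4 induces under ER stress, fell from 39.9 and 24.3 CPM to 19.9 and 17.0 CPM (log2-fold change −0.80, SE 0.26, adjusted p = 0.13, and 0.0048 with the block). RUVs followed by DESeq2 did not call it. Its control libraries differed from each other by more than the lower of them differed from the knockdown libraries. Without control replicate 1 the log2-fold change was −0.40, and without control replicate 2 it was −1.11.

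Set against the 18 listed ATF4 targets, FARSA moved against their centre. These 18 include no synthetase, and the 7 synthetases that hold the core had a median log2-fold change of 0.06 and 0 calls. The values below therefore describe the listed genes and not ATF4 targets in general. The targets had a median log2-fold change of −0.43, with 6 positive and 12 negative values, and with the block 2 rose and 9 fell, 61.1% together beside 14.5% of all genes. The median was −0.61 in I90-10 and −0.23 in I90-79. SHMT2 alone of the 18 came near FARSA, and PHGDH, the next, was at 0.66. The summed reads of the 18 were 1989 and 1808 CPM in control and 1506 and 1840 CPM in knockdown libraries, so their total overlapped between the groups while most single targets did not: 4 lay higher (22.2%) and 10 lower (55.6%) without overlap, beside 29.8% and 30.2% of all genes.

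**Figure D3:**
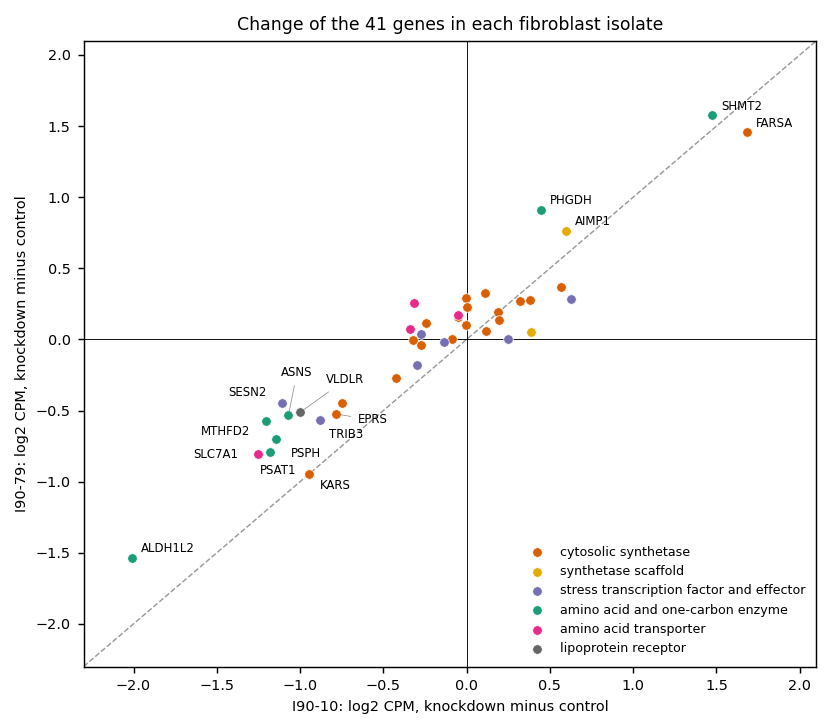
Log2 CPM in knockdown minus control for each of the 41 genes, in isolate I90-10 (horizontal) and I90-79 (vertical), coloured by role, with names for the 15 genes called with the isolate as a block. The dashed line marks equal values. FARSA and SHMT2 stand apart at the upper right, ALDH1L2 at the lower left, and the genes that fell lie above or on the line, which is a smaller difference in I90-79.

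The isolates agreed in sign for 32 of the 41 members (78.0%), beside 78.3% of all genes tested, so the members were no more alike between isolates than other genes. All 15 called members had the same sign in both, which the call itself makes likely, since opposite signs would rarely pass it. KARS gave −0.95 in each isolate, whereas SESN2 gave −1.11 and −0.45 and PHGDH 0.45 and 0.91.

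Related genes outside the 41 were read from lists of other roles. Of 17 mitochondrial synthetases, 3 rose and 1 fell, 23.5% together beside 14.5% of all genes (median log2-fold change 0.16). MARS2 (1.45, adjusted p = 0.00018 with the block), CARS2 (0.67, adjusted p = 0.0020 with the block) and TARS2 (0.66, adjusted p = 0.0042 with the block) rose, and LARS2 (−1.09, adjusted p = 0.00031 with the block) fell. Among 18 genes for eIF2, eIF2B and the kinases and phosphatase subunits that act on eIF2α, 2 rose and 1 fell, a share of 16.7% and close to the 14.5% of all genes (median 0.06). EIF2S1, which encodes eIF2α, was at 0.68 (adjusted p = 0.0011 with the block), EIF2B2 at 0.60 (0.61 with the block, adjusted p = 0.0050) and EIF2S3, for eIF2γ, at −0.78 (adjusted p = 0.00089 with the block).

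A list of 25 further genes associated with ATF4 had a negative median as the targets did, with 4 that rose, 8 that fell a share of 48.0% beside 14.5% of all genes, and a median log2-fold change of −0.33. The 6 with the smallest p in the fit on group alone were EIF4EBP1 (−1.39, adjusted p = 0.000125 with the block), a repressor of cap-dependent translation, ADM2 (−1.75, adjusted p = 0.00070 with the block), the glycine carrier SLC6A9 (−1.13, adjusted p = 0.00082 with the block) and the proline synthesis gene ALDH18A1 (−0.63, adjusted p = 0.0017 with the block), which fell, and KLHL24 (0.98, adjusted p = 0.00036 with the block) and the autophagy receptor gene SQSTM1 (0.88, adjusted p = 0.00045 with the block), which rose. JDP2 (−1.97, adjusted p = 0.000128 with the block), a repressor of AP-1, and GDF15 (1.75, adjusted p = 0.000152 with the block), a stress-induced cytokine gene, ranked among the smallest p of that second fit and had the lowest and the highest log2-fold change of the list. JDP2 was at −1.29 without control replicate 1 and at −2.43 without control replicate 2. Of 14 genes of the ER chaperone and unfolded protein response, only SEL1L was called (−1.31, adjusted p = 0.00013 with the block), 7.14% beside 14.5% of all genes, and their median was −0.03.

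**Figure D4:**
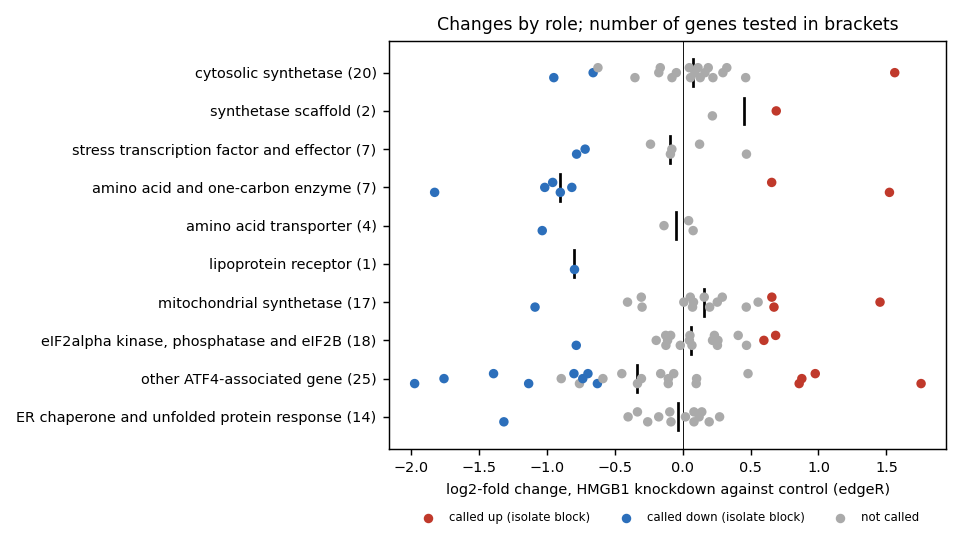
Log2-fold change (HMGB1 knockdown against control, fit on group alone) of each gene tested, 1 line of points per role, with the number of genes in brackets. Red and blue points were called up or down with the isolate as a block, grey points were not called, and black bars are medians. The enzymes and the ATF4-associated genes have medians of −0.90 and −0.33, the cytosolic synthetases of 0.07, with FARSA the red point far to their right.

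FARSA lies on chromosome 19 from 13033293 to 13044851 on the minus strand (hg19, as all coordinates of the files). Of the 21 genes within 100 kb of it, 7 were tested, with 4 positive and 3 negative values and a median log2-fold change of 0.08. NFIX, 61571 bases away, was the only one called, and it fell (−0.86, adjusted p = 0.00043 with the block). CALR, the nearest of the genes tested at 4541 bases, was at 0.08. The antisense gene FARSA-AS1 overlaps 1.03% of the exon bases of FARSA and had 0 counts in all 4 libraries.

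The 6-base word GCAGTT was counted in the longest annotated 3′ UTR of each gene. That UTR can reach beyond the exons counted, as for FARSB with 4972 UTR bases beside 3429 exon bases. Over all genes tested with a 3′ UTR, the median log2-fold change was −0.14 for genes that hold it and 0.07 for genes that do not. No other word was set beside it and the basis for its choice is not recorded, so this difference is a description and not a test. The word occurs in 11 of the 41 members (26.8%) and in 37.2% of all genes tested with a 3′ UTR. The median of these longest 3′ UTRs was 738 bases in the members and 1546 bases over all these genes. Length was not accounted for in the shares or in the medians. Members with the word had a median of −0.35 and those without it 0.00. Of the 11 members that fell, KARS, TRIB3, VLDLR, ALDH1L2 and SLC7A1 hold it and EPRS, ASNS, SESN2, PSAT1, PSPH and MTHFD2 do not. FARSA and SHMT2, which rose, hold 1 copy each. Its part in the changes of single members was not tested.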

How the data were processed

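Poly(A) RNA of 4 IMR90 libraries was sequenced. The authors mapped paired-end reads to hg19 with STAR and counted unique reads per gene with featureCounts, and the deposited values are raw read counts for 63677 genes. Tool versions, strand setting and the counting of read pairs are not given in the sources used here, so antisense and overlapping genes may share reads. Symbols were found for 55665 genes.

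From these counts, edgeR 4.0.16 (R 4.3.3, limma 3.58.1) was run on all 4 libraries with filterByExpr (15398 genes), TMM factors (0.968 to 1.04), the quasi-likelihood test and Benjamini-Hochberg adjustment over all genes tested. Calls required an adjusted p under 0.01 together with a log2-fold change beyond 0.6 in either direction. CPM used TMM-scaled library sizes, log2 CPM of single isolates a prior count of 2, and CPM per kb the exon length in the files. The depth was 29869338 and 35317010 counts in control and 29861687 and 31086475 in knockdown libraries.

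Replicate numbers pair the libraries because each marks 1 isolate, and the differences between replicates correlated between the groups (r = 0.46 across 15398 genes, which are not independent). A fit with isolate as replicate block was an alternative, as were DESeq2 1.42.0, RUVs with 1 factor followed by DESeq2, DESeq2 size factors, no low-count filter, an adjusted p below 0.05 and leaving out each library. RUVs was written out from its description, with all genes tested as controls. With 2 libraries per group, no test of outliers within a group was made. The scripts were tested on simulated data.

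The members and lists were chosen, and FARSA was singled out among them, with earlier results of these data known. Values are given by library for FARSA, FARSB, ATF4, each called member and the 2 members of each role with the smallest p, and other members were named freely. On other lists, the called genes were named, at most 6 each by smallest p, and near FARSA those called or overlapping it. CALR, JDP2, GDF15, WARS, VARS, RARS, MARS, CHAC1, DDIT3 and SLC7A11 were described after their values were seen. RefSeq promoters (GRCh38.p14) were found for 33 of 41 members. Exon overlaps and 50-base words shared with other genes of the files were computed from the hg19 reference.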

Additional observations from a re-analysis of the deposited data

Results flagged for a closer look

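For 9 members the isolates moved in opposite directions. This difference between isolates was not tested, since each isolate has 1 library per group, and 78.3% of all genes tested had the same sign in both. The largest split was that of the cystine carrier gene SLC7A11, at −0.318 in I90-10 and 0.259 in I90-79 (log2 CPM, knockdown minus control), and the other carrier genes SLC7A5 (−0.34 and 0.0765) and SLC3A2 (−0.0527 and 0.174) split the same way round. DDIT3 gave −0.272 and 0.0365. Among the synthetases, YARS gave −0.243 and 0.112, GARS −0.0026 and 0.294, TARS −0.0509 and 0.158, DARS −0.00327 and 0.103, and CARS −0.0901 and 0.00566. In all 9 the value of I90-10 was the negative one, and none of the 9 was called with or without the isolate as a block or with RUVs followed by DESeq2.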

How the results depend on the processing

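How many genes were called depended on the fit, while the direction of FARSA and of the 15 members called with the replicate block did not. All these fits draw on the same libraries and the 15 were picked by 1 of them, so this constancy is not independent support. Genes called up and down numbered 10 and 21 in the fit on group alone, 1028 and 1207 with the replicate block for the pairing by isolate, 1118 and 1275 without the low-count filter, 728 and 818 with DESeq2, 763 and 829 with RUVs followed by DESeq2, 575 and 668 at an adjusted p below 0.05, and 0 to 305 and 0 to 337 with 1 library left out. For the members these counts were 0 and 0, then 4 and 11, 4 and 12, 3 and 10, 3 and 8, 2 and 7, and 0 to 2 and 0 to 6. Without control replicate 1 they were 2 and 1, without control replicate 2 they were 2 and 6, and without either knockdown library 0 and 0, as in the fit on all 4. Size factors of DESeq2 in edgeR gave 9 and 20 calls over all genes and 0 and 0 among the members.

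The log2-fold change of FARSA was 1.57 with the replicate block, 1.57 without the filter, 1.565 with DESeq2, 1.44 with RUVs and 1.56 at an adjusted p below 0.05, all past the thresholds there, and 1.39 to 1.75 with 1 library left out. Its distance from the median of the other synthetases was 1.27 to 1.76 with 1 library left out. HMGB1 ranged from −3.77 to −3.38 and missed the threshold with either knockdown library left out. Signs turned with the block for SLC7A11 (−0.0279), and with RUVs for SLC7A11 (−0.40), SLC3A2 (−0.16), CARS (0.0704), YARS (0.0566) and TARS (−0.0109). Leaving out 1 library turned the sign of AARS (−0.35 to 0.0195), CARS (−0.17 to 0.0842), SARS (−0.32 to 0.00761), YARS (−0.26 to 0.12), GARS (−0.0803 to 0.37), QARS (−0.0469 to 0.22), TARS (−0.0658 to 0.17), DDIT3 (−0.48 to 0.22), SLC7A11 (−0.57 to 0.47), SLC7A5 (−0.27 to 0.00651) and SLC3A2 (−0.22 to 0.32), and the lone sample left in a group was then assumed to vary like the others. The cause was not tested. With 2 libraries per group, small differences such as that of ATF4 are not resolved.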
